A study of Mus musculus with 2 samples.

Results

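The genes described here are 10 enzymes and enzyme partners that make leukotrienes and prostaglandins: Alox5, Alox5ap, Alox12, Alox15, Lta4h, Ltc4s, Ptgs1, Ptgs2, Hpgds and Ptges. They were taken as the rows of the bone marrow and spleen gene tables that carry these symbols, 10 of the 16428 genes with a read in at least 1 library. The study sorted macrophages from mice with acute myeloid leukaemia driven by the MLL-AF9 fusion and sequenced their RNA, with 1 library from bone marrow and 1 from spleen. Both libraries came from C57BL/6J mice aged 6 to 8 weeks that had received 500000 GFP-positive leukaemia cells each without irradiation, and macrophages were taken on day 15 in mice that survive 25 to 30 days. Both groups therefore carry leukaemia, host marrow was not ablated, and healthy macrophages were not analysed here. Neither the sort's gates nor the number of mice pooled into a library is stated in the sources used here. Below, bone marrow is shortened to marrow.

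Eicosanoids are signalling lipids cut from membrane arachidonic acid. In the leukotriene branch, 5-lipoxygenase with its membrane partner FLAP makes leukotriene A4, which Lta4h turns into the neutrophil attractant leukotriene B4 and Ltc4s joins to glutathione to start the cysteinyl leukotrienes. In the prostanoid branch, the cyclooxygenases Ptgs1 and Ptgs2 make prostaglandin H2, from which terminal synthases such as Hpgds and Ptges make prostaglandins D2 and E2. Macrophages, granulocytes, mast cells and platelets each carry a characteristic share of these enzymes.

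Effective depths were 9405947 uniquely placed reads for marrow and 8457857 for spleen, after scaling by trimmed mean of M-values (TMM). Levels are given as CPM, the count scaled to that depth. A gene is called measured below when 1 or both libraries gave it 10 reads or more and a level of 1 CPM or more. A gene was called higher in 1 library where log2(CPM + 1) differed by at least 1, a 2-fold difference. With 1 library per tissue there was no replicate and no test, so each difference is between these 2 libraries, and each 95% interval covers counting error only. Markers of other blood cells were present beside those of macrophages. The 15 macrophage markers, including Csf1r, Adgre1 (F4/80) and C1qa, all had reads in both libraries, and their summed level was 588 CPM in marrow and 1301 CPM in spleen. The 18 neutrophil and granulocyte precursor markers summed to 50905 CPM in marrow and 2440 CPM in spleen, and the 10 B cell markers to 460 and 4828 CPM. In such bulk libraries a larger number of cells of a type cannot be told apart from more RNA of a gene per cell.

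All 10 enzymes had reads in both libraries and all 10 were measured. Of these, 7 were higher in marrow (Alox5, Alox5ap, Alox15, Lta4h, Ltc4s, Ptgs1 and Ptges), 2 were higher in spleen (Ptgs2 and Hpgds), and Alox12 was not called. Among all 12970 measured genes, 14.1% were called higher in marrow and 14.6% higher in spleen. Past 4-fold on the same scale lay 4 enzymes towards marrow (Alox5, Alox15, Lta4h and Ptges) and 0 towards spleen, against 4.42% and 4.09% of measured genes. The median log2 difference of the 10, marrow minus spleen, was 1.78, beside 0.03 over all measured genes. Together the 10 genes took 14015 reads in marrow and 2779 in spleen, or 1490 and 329 CPM. Lta4h alone gave 57.3% of those reads in marrow and 44.6% in spleen. The genes were chosen with earlier results of these data known, so these counts describe the 10 genes and support nothing further.

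**Figure D1:**
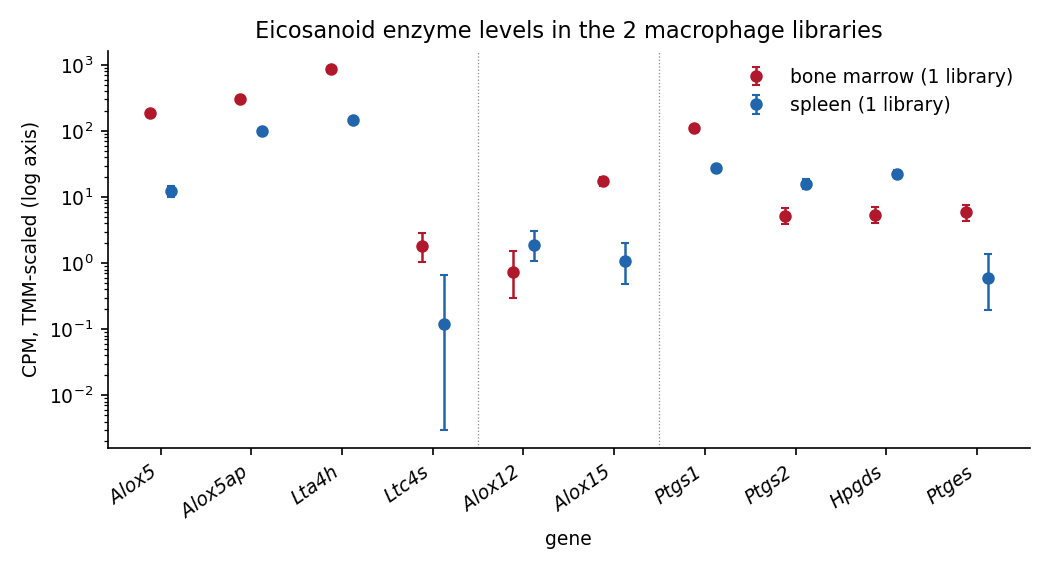
Level of each enzyme in CPM on a log axis, with marrow in red and spleen in blue, 1 library each; bars are exact 95% Poisson intervals of the count. Dotted lines part the leukotriene branch (left), the other lipoxygenases and the prostaglandin enzymes (right). Spleen lies above marrow only for Alox12, Ptgs2 and Hpgds, and the intervals of Alox12 overlap.

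The first enzyme of the leukotriene branch showed one of the widest gaps. Alox5 (Entrez gene 11689), the 5-lipoxygenase that oxygenates arachidonic acid, had 1763 reads in marrow and 103 in spleen, or 187 and 12.2 CPM. It was 15.4-fold higher in marrow (95% interval 12.6 to 19.0), with a difference of 3.84 on the log2(CPM + 1) scale. Only 70 of the 12970 measured genes had a larger difference towards marrow. Reads covered 98.8% of the Alox5 length in marrow and 80.1% in spleen, so both values rest on reads spread along the transcript.

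The 250 bases before the start of Alox5 and of Lta4h are shown because these 2 genes of the leukotriene B4 route, both higher in marrow, have windows that differ in a GC box. They are RefSeq-derived windows of build GRCm38.p6, chr6:116461179-116461428 on the minus strand and chr10:93453146-93453395 on the plus strand, printed 5′ to 3′ and named from the table by gene identifier. Capitals mark a GC box (GGGCGG or its reverse complement).
Alox5: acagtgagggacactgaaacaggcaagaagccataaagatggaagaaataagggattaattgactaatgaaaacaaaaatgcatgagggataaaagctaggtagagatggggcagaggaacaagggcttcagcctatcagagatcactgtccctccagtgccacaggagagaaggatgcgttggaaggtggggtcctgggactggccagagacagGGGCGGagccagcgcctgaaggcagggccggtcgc
Lta4h: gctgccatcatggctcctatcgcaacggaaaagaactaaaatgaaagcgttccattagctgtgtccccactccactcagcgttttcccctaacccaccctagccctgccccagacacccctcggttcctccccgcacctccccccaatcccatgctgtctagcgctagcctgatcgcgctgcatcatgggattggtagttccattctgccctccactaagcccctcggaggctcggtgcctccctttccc
The Alox5 window held 1 GC box, 35 to 30 bases before the start, and the Lta4h window held none. Of all 32851 promoter windows of this length in the table, 32.7% held at least 1. The GC content was 52.8% for Alox5 and 58.8% for Lta4h, beside a median of 52.4% over all windows.

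Alox5ap (11690), which encodes FLAP, the membrane protein that presents arachidonic acid to 5-lipoxygenase, differed less than its partner. It had 2841 reads in marrow and 852 in spleen, or 302 and 101 CPM, and was 3.0-fold higher in marrow (2.78 to 3.24). Per gene length, the deposited RPKM of Alox5ap was 5.22 times that of Alox5 in marrow and 26.8 times in spleen. That ratio of FLAP to 5-lipoxygenase transcript was 5.13-fold larger in spleen (4.14 to 6.41), a comparison within each library that does not depend on the scaling between them. In spleen the RPKM of Alox5ap, 118, was above that of 96.1% of measured genes, and that of Alox5, 4.41, above 29.5%.

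Lta4h (16993), the hydrolase that makes leukotriene B4 and is also an aminopeptidase, was the most abundant of the 10 by reads. It had 8037 reads in marrow and 1240 in spleen, or 854 and 147 CPM, and was 5.83-fold higher in marrow (5.49 to 6.19). In marrow its RPKM of 404 was above that of 98.8% of measured genes, and in spleen its RPKM of 72.6 was above that of 92.2%. The ratio of Lta4h to Alox5, both per length, was 6.24 in marrow and 16.5 in spleen.

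Ltc4s (17001), the synthase that opens the cysteinyl leukotriene route, was near the detection limit. It had 17 reads in marrow and 1 read in spleen, or 1.81 and 0.118 CPM. The ratio of 15.3 had a counting interval of 2.40 to 639, so its size is poorly fixed, and the call was lost with a pseudocount of 5 (log2 difference 0.41). Reads covered 81.3% of its short length in marrow and 8.33% in spleen. The annotated antisense gene Gm26542 shares 268 of the 1014 exon bases of Ltc4s. Since strand use in the counting is not given, reads of the pair within that shared part cannot be told apart.

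The other lipoxygenases went different ways. Alox15 (11687), the 12/15-lipoxygenase known from eosinophils and some resident macrophages, had 162 reads in marrow and 9 in spleen, or 17.2 and 1.06 CPM. It was 16.2-fold higher in marrow (8.32 to 36.0), and its covered length was 96.5% there against 18.3% in spleen. Alox12 (11684), the platelet-type 12-lipoxygenase, had 7 reads in marrow and 16 in spleen, or 0.744 and 1.89 CPM. Its ratio of 2.54 towards spleen had an interval of 0.989 to 7.31 that includes equal levels, so a difference was not detectable at this depth; with a pseudocount of 0.1 it passed the size rule (log2 difference -1.24). The ratio of Alox15 to Alox12 per length was 28.7 in marrow and 0.697 in spleen, a 41.1-fold difference (11.9 to 146).

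**Figure D2:**
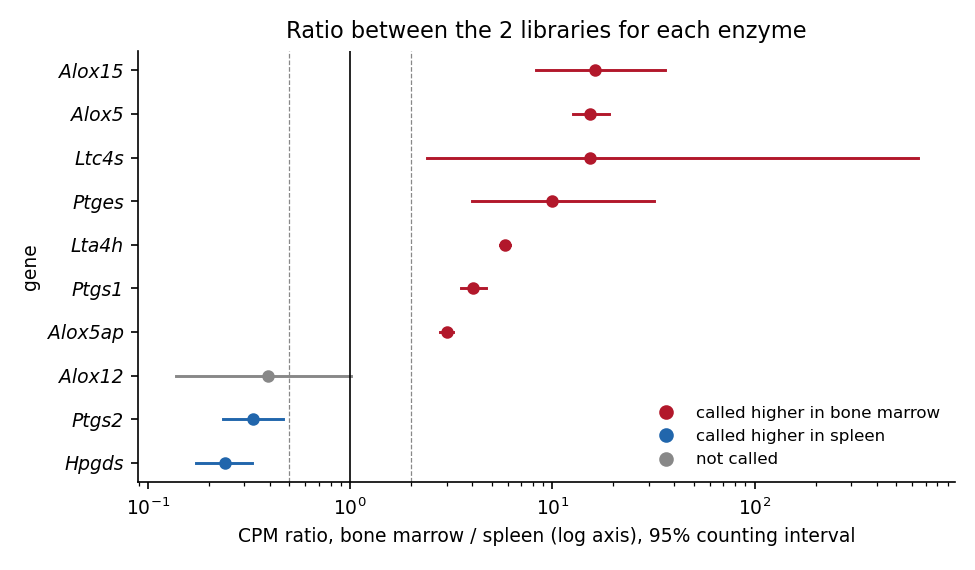
Ratio of CPM in marrow to CPM in spleen on a log axis, with exact 95% counting intervals; the solid line is equal levels and dashed lines are 2-fold. Calls use log2(CPM + 1), so Alox12, at low reads, lies past the dashed line without a call. Alox15, Alox5 and Ltc4s have ratios of 16.2, 15.4 and 15.3 but intervals of very different width.

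The cyclooxygenases differed in opposite directions. Ptgs1 (19224), the constitutive COX-1, had 1033 reads in marrow and 229 in spleen, or 110 and 27.1 CPM, and was 4.06-fold higher in marrow (3.51 to 4.70). Ptgs2 (19225), the inducible COX-2, had 49 reads in marrow and 133 in spleen, or 5.21 and 15.7 CPM, and was 3.02-fold higher in spleen (2.16 to 4.28). Ptgs1 was the more abundant of the pair in both libraries, with an RPKM of 37.5 against 1.23 in marrow and 9.67 against 3.88 in spleen. The Ptgs1 to Ptgs2 ratio per length was therefore 30.5 in marrow and 2.49 in spleen, a 12.2-fold difference (8.46 to 17.9).

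The upstream windows of this pair, from the same table, are printed because the transcripts differ in direction. The Ptgs1 window is chr2:36230176-36230425 and the Ptgs2 window chr1:150099781-150100030, both on the plus strand of GRCm38.p6. Capitals mark an ETS core (GGAAGT or its reverse complement) in Ptgs1 and a GC box in Ptgs2.
Ptgs1: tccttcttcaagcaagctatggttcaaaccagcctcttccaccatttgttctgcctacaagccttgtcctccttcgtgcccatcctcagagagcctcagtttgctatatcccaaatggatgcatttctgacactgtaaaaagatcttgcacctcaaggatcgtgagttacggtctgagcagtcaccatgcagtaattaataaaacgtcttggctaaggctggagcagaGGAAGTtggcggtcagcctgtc
Ptgs2: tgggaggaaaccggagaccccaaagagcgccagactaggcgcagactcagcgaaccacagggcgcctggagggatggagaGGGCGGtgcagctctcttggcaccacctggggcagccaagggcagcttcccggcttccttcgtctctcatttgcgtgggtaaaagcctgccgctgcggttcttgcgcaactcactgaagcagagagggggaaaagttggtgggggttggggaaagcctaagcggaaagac
The ETS core of Ptgs1 lay 22 to 17 bases before the start, and the GC box of Ptgs2 170 to 165 bases before it. An ETS core was present in 19.7% of all windows. The GC content was 48.0% for Ptgs1 and 61.6% for Ptgs2.

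The terminal prostaglandin synthases also parted. Hpgds (54486), the haematopoietic prostaglandin D synthase, had 51 reads in marrow and 191 in spleen, or 5.42 and 22.6 CPM, and was 4.16-fold higher in spleen (3.04 to 5.79). Ptges (64292), the inducible microsomal prostaglandin E synthase, had 55 reads in marrow and 5 in spleen, or 5.85 and 0.591 CPM, and was 9.89-fold higher in marrow (3.99 to 31.7). With a pseudocount of 5 the Ptges difference was 0.96 on the log2 scale, just short of a call. In marrow both stood at nearly the same RPKM, 1.61 for Hpgds and 1.57 for Ptges, and in spleen at 7.01 and 0.166. The Hpgds to Ptges ratio per length was 1.03 in marrow and 42.2 in spleen, a 41.2-fold difference (15.3 to 137).

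Windows of both synthases are shown for the same reason, chr6:65144731-65144980 for Hpgds and chr2:30903298-30903547 for Ptges, both on the minus strand, with an ETS core (Hpgds) and GC boxes (Ptges) in capitals.
Hpgds: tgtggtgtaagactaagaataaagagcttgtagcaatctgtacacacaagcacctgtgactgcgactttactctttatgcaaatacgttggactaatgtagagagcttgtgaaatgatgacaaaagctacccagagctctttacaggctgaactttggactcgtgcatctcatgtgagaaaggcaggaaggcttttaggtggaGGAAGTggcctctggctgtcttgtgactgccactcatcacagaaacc
Ptges: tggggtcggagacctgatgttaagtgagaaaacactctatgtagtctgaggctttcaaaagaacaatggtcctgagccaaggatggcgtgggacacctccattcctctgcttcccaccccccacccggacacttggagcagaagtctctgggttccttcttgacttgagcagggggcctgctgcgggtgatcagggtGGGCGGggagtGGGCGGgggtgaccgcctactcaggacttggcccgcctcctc
The Hpgds core lay 47 to 42 bases before the start and the Ptges boxes 53 to 48 and 42 to 37 bases before it. In all, 8 of the 10 genes had a window in the table. A GC box was found in 4 of them (Alox5, Alox12, Ptgs2 and Ptges) and an ETS core in 3 (Ltc4s, Ptgs1 and Hpgds), and genes of both directions were among each. A TATA box (TATAAA), an E-box (CACGTG), a cyclic AMP element half-site (TGACG) and a GATA motif (AGATAA) were searched on both strands too and had no match in these 8 windows, against 12.4%, 6.02%, 17.8% and 9.99% of all windows. The search covered only the 250 bases before each annotated start, so motifs past either end of a window were not looked for. A match of letters is not a binding site, and these tables hold no measurement of binding.

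The order of the enzymes per gene length differed between the libraries. In marrow the deposited RPKM ran from Lta4h (404) and Alox5ap (338) through Alox5 (64.8), Ptgs1 (37.5) and Alox15 (6.97) to Ltc4s (3.0), Hpgds (1.61), Ptges (1.57), Ptgs2 (1.23) and Alox12 (0.243). The Poisson intervals of 3 of the 9 neighbouring pairs overlapped there, those from Ltc4s down to Ptgs2. In spleen the order was Alox5ap (118), Lta4h (72.6), Ptgs1 (9.67), Hpgds (7.01), Alox5 (4.41), Ptgs2 (3.88), Alox12 (0.647), Alox15 (0.451), Ltc4s (0.206) and Ptges (0.166). Alox5 and Ptgs2 overlapped, as did each neighbouring pair from Alox12 down to Ptges. Alox5 thus held rank 3 in marrow and rank 5 in spleen, where it lay below Ptgs1 and Hpgds. The median RPKM of all measured genes was 10.7 in marrow and 11.3 in spleen, so 4 of the enzymes were above the median gene in marrow and 2 in spleen.

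**Figure D3:**
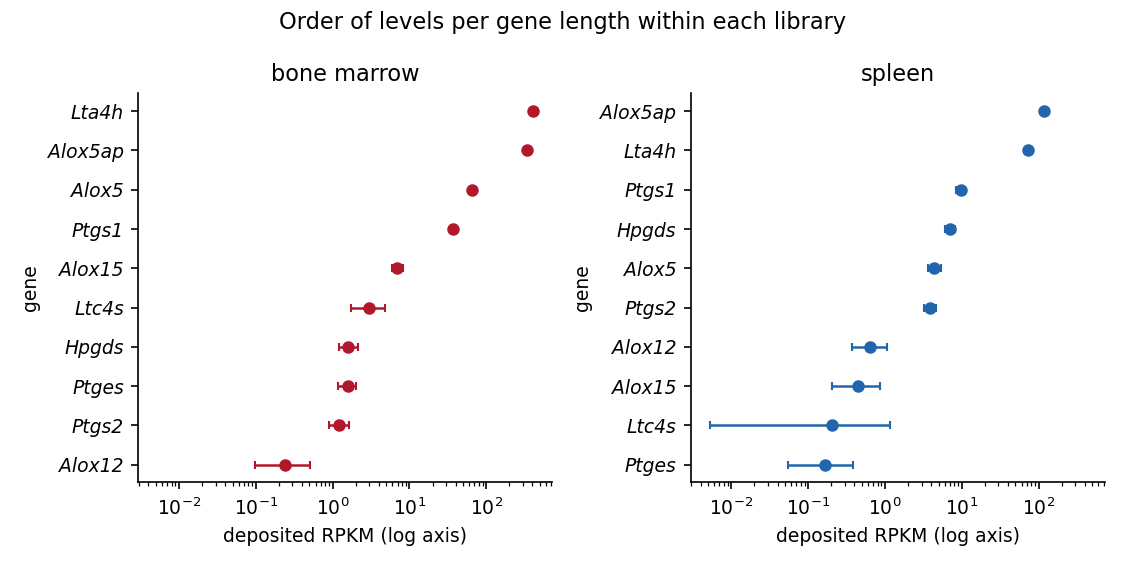
Deposited RPKM of each enzyme on a log axis, ordered within the marrow library (left) and the spleen library (right), with exact 95% Poisson intervals of the count on the same scale. Alox5ap (FLAP) and Lta4h hold the first 2 ranks in both libraries in opposite order, and the rank of each of the 10 enzymes differs between the libraries, by up to 3 places.

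The genes around these enzymes had calls in both directions. Of 68 listed genes of arachidonate supply, further metabolism and receptors, 49 were measured, 11 were higher in marrow, 7 were higher in spleen and 31 were not called, with a median log2 difference of 0.22. The shares were 22.4% towards marrow and 14.3% towards spleen, beside 14.1% and 14.6% of all measured genes. Of 16 measured genes of arachidonate release and re-acylation, 2 were higher in marrow and 4 in spleen. Pla2g4a, the cytosolic phospholipase A2 that feeds both branches, was at 57.1 CPM in marrow against 14.3 in spleen, or 3.99-fold higher (3.27 to 4.90). Mgll, a monoacylglycerol lipase that also yields arachidonic acid, was 3.17-fold higher in marrow (2.20 to 4.67). Other phospholipases were higher in spleen. The cytosolic-type Pla2g4f had 2 reads in marrow and 71 in spleen, 39.5-fold with a counting interval of 10.5 to 332, and Pla2g4b had 57 and 164. The secreted Pla2g2d, known from lymphoid tissue, had 10 and 48. Pla2g7, which inactivates platelet-activating factor, was at 19.7 CPM in marrow and 42.3 CPM in spleen. Mboat7, a re-acylating enzyme and the most abundant of this list in marrow, was at 86.5 and 75.2 CPM and was not called.

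Among 11 other measured lipoxygenase and leukotriene genes, 3 were higher in marrow and 2 in spleen, beside 14.1% and 14.6% of all measured genes. Mgst2, a microsomal glutathione transferase that can make leukotriene C4, had 409 reads in marrow and 126 in spleen, many more than Ltc4s in either library. It was 2.92-fold higher in marrow (2.38 to 3.59), and Mgst1, a related detoxifying transferase, was 5.03-fold higher (4.08 to 6.23). Alox12e, the epidermal 12-lipoxygenase, had 50 reads in marrow and 1 in spleen, and the counting interval around its 45.0-fold ratio ran from 7.71 to 1811. In the opposite direction, Ggt1, a gamma-glutamyl transferase that can act on leukotriene C4, had 7 reads in marrow and 54 in spleen, and Cyp4f18, a cytochrome that inactivates leukotriene B4, was 2.29-fold higher in spleen (2.02 to 2.60). Cotl1, an actin-binding protein that also binds 5-lipoxygenase, was at 561 and 563 CPM, with a ratio of 0.997 (0.958 to 1.04).

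Of 11 other measured prostanoid synthases and prostaglandin-removing genes, 3 were higher in marrow and 1 in spleen. Over all measured genes the shares were 14.1% and 14.6%. Tbxas1, the thromboxane synthase, was 2.54-fold higher in marrow (2.03 to 3.19), Abcc4, an exporter of prostaglandins, 2.38-fold (2.10 to 2.69), and Ptgr1, a reductase that inactivates both leukotriene B4 and prostaglandin products, 7.76-fold (6.20 to 9.82). Ptgis, the prostacyclin synthase, had 0 reads in marrow and 39 in spleen, and the exact counting interval of its fold towards spleen began at 11.2. Ptges3 and Ptges2, the other prostaglandin E synthases, were at 220.5 and 23.8 CPM in marrow and at 140 and 12.7 CPM in spleen and were not called. Hpgd, which degrades prostaglandins, was at 38.7 and 61.1 CPM and was not called.

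Among receptors, Ltb4r1 for leukotriene B4 had the widest gap. Of 5 measured leukotriene and lipoxin receptors, 2 were higher in marrow and 0 in spleen, against 14.1% and 14.6% of all measured genes. Ltb4r1, the high-affinity leukotriene B4 receptor, had 1259 reads in marrow and 84 in spleen, a 13.5-fold difference (10.8 to 17.0). Fpr2, a formyl peptide and lipoxin receptor, was 3.93-fold higher in marrow (3.10 to 5.03). The cysteinyl leukotriene receptors Cysltr1 and Cysltr2 had 32 and 27 reads in marrow and 22 and 23 in spleen, and neither was called. Of 6 measured prostanoid receptors, 1 was higher in marrow, near the share of all genes, and 0 in spleen, with a median log2 difference of -0.13 and sums of 152 CPM in marrow and 199 CPM in spleen. The 1 was Ptgir, the prostacyclin receptor, at 22.6 and 8.51 CPM. Tbxa2r, the thromboxane receptor, was at 7.55 CPM in marrow and 15.6 CPM in spleen, 2.07-fold (1.54 to 2.80) with a log2(CPM + 1) difference of -0.96, just short of a call. Ptger4 and Ptger1, receptors for prostaglandin E2, were at 51.1 and 109 CPM in spleen and 30.0 and 73.3 CPM in marrow, short of a call.

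**Figure D4:**
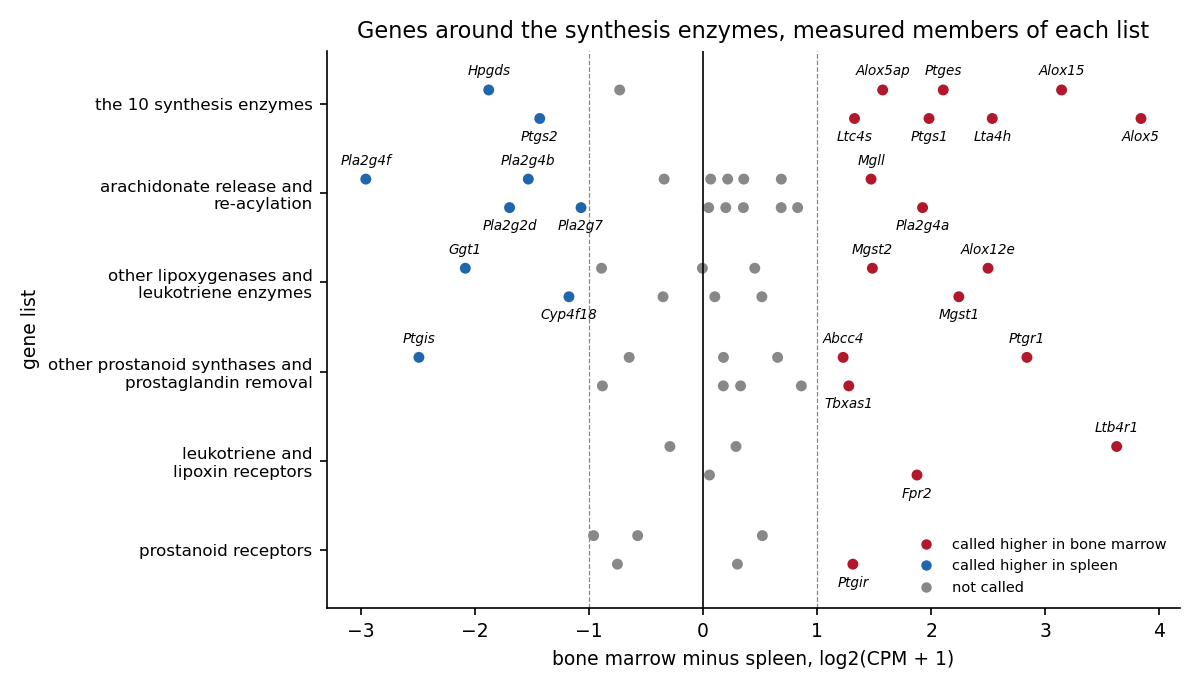
Bone marrow minus spleen difference on the log2(CPM + 1) scale for the 10 synthesis enzymes and for the measured genes of each surrounding list, 1 point per gene; red and blue mark calls towards marrow and spleen, and dashed lines are 2-fold. Of the 10 synthesis enzymes 9 are called, and of the 49 surrounding genes 18 (36.7%), beside 28.8% of all measured genes.

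Markers of other blood cells moved with these differences, and their part in them was not tested. The marrow library was higher in Alox5, Lta4h and Ltb4r1. Beside them, 17 of 18 neutrophil and granulocyte precursor markers were measured and all 17 were higher in marrow, a 20.9-fold larger sum. Ly6g was listed in neither library and so counts as 0 reads. Beside Alox15 and Ltc4s stand the eosinophil markers, 5 of 7 higher in marrow and 2 in spleen, with a sum of 693 CPM in marrow and 69.2 CPM in spleen. Epx, the eosinophil peroxidase, was at 169 and 2.36 CPM. The 2 markers towards spleen were Ccr3, at 5.85 CPM in marrow and 30.3 CPM in spleen, and Il5ra, at 5.42 and 23.6 CPM. The basophil and mast cell markers summed to 2220 CPM in marrow and 62.2 CPM in spleen, with 7 of 8 measured higher in marrow and 1 in spleen. The mast cell proteases Tpsab1 and Mcpt4 and the receptor Mrgprb2 had 0 reads in both libraries and Tpsb2 had 1 read in marrow and 0 in spleen, and the mast cell chymase Cma1 had 6 reads in marrow and 26 in spleen. Cpa3, a carboxypeptidase of mast cells and basophils, was at 198 CPM in marrow and 4.37 CPM in spleen, and the basophil protease Mcpt8 at 378 and 7.09 CPM. Beside Ptgs1, which platelets also carry, the megakaryocyte and platelet markers summed to 371 CPM in marrow and 35.7 CPM in spleen, with 8 of 11 measured higher in marrow and 0 in spleen, and Gp6 at 0 reads in both. Alox12, the platelet-type enzyme, had 7 and 16 reads, with a counting interval that includes equal levels.

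For Ptgs2 and Hpgds, the enzymes higher in spleen, macrophage, conventional dendritic cell, B cell, T cell and plasma cell markers went the same way. The basophil and mast cell, platelet, eosinophil and granulocyte lists, with larger sums in marrow, went the other way. Of 15 macrophage markers, 9 were higher in spleen and 0 in marrow, and the list's sum was 2.21-fold higher in spleen with no marker at 0 reads. Conventional dendritic cell markers summed to 182 CPM in marrow and 1075 CPM in spleen, with 8 of 10 higher in spleen and none at 0 reads. All 10 B cell markers and all 9 measured T cell markers were higher in spleen, with sums 10.5-fold and 8.32-fold larger and Trac listed in neither table. Monocyte markers lay closer, at 1419 CPM in marrow and 1875 CPM in spleen, with 2 of 10 higher in each. Calls over all measured genes were 14.1% towards marrow and 14.6% towards spleen. Stem and progenitor markers, which leukaemia cells can share, summed to 1343 CPM in marrow and 380 CPM in spleen, with 7 of 9 higher in marrow and Mecom at 0 reads in spleen. The remaining sums, marrow first, were 557 and 2276 CPM for plasma cell markers, with 6 of 7 higher in spleen. Plasmacytoid dendritic cell markers summed to 196 and 507 CPM, with 2 of 8 higher in spleen. NK cell markers summed to 372 and 419 CPM, with 4 of 8 higher in spleen and 1 in marrow. Erythroid markers summed to 326 and 200.2 CPM, and stromal and endothelial markers to 162 and 193 CPM, with Cxcl12 at 0 reads in spleen and Pdgfra at 0 in both.

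**Figure D5:**
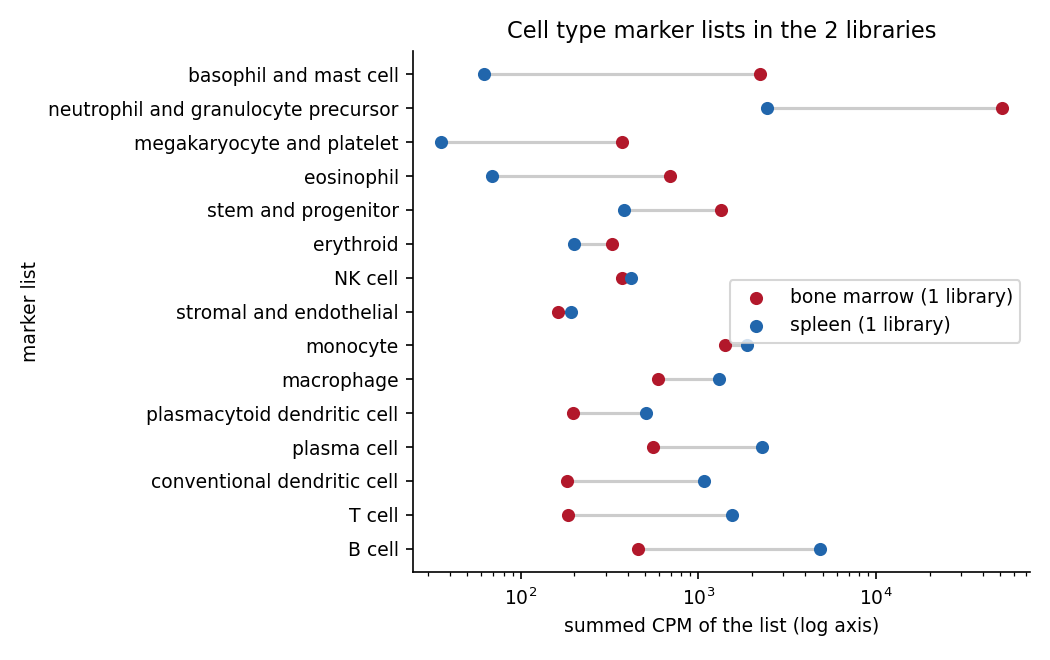
Summed CPM of each cell type marker list on a log axis, with marrow in red and spleen in blue, 1 library each, ordered by the ratio of the sums. Basophil and mast cell, granulocyte, platelet and eosinophil lists are 10.0-fold to 35.7-fold larger in marrow, and the B cell list is 10.5-fold larger in spleen.

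Uniquely placed reads leave out sequence that is repeated elsewhere. In the GENCODE vM21 transcripts, Hpgds shared stretches of 50 to 121 bases at 95% identity or more with 28 other genes, and Alox12 stretches of up to 88 bases with 7. Alox5ap, Ltc4s and Ptgs1 each shared sequence with 1 opposite-strand annotated gene at the same locus (Gm19719, Gm26542 and Gm43621). These genes overlap 189, 268 and 148 of the enzymes' exon bases. An overlap is not a repeat, so its reads can be uniquely placed, but their gene depends on strand use, which is not given. Alox5, Alox15, Lta4h, Ptgs2 and Ptges, the other 5 enzymes, had neither kind of match.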

How the data were processed

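RNA of sorted macrophages was sequenced in 1 bone marrow and 1 spleen library. The authors deposited for each gene, per the file headers, its length, an RPKM value, the percent of length under reads, and a count from reads with a unique placement. The aligner, the counter, the build and the annotation: not given in the sources used here. RPKM equalled count, length and total combined to within 6.74e-06 percent. Unlisted genes were given 0 reads. Of the markers, Ly6g, Gp6, Tpsab1, Mcpt4, Mrgprb2, Pdgfra and Trac were listed in neither library. Nor were the pathway genes Ptgds, Alox12b, Pla2g4e, Pla2g2e, Pla2g2f, Pla2g10, Oxgr1 and Gpr17. For these, a lack of reads cannot be told apart from absence in the authors' annotation. Tables were joined on Entrez identifier, of which 16379 of 16428 matched RefSeq (GRCm38.p6) for current symbols.

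Counts were scaled by TMM (edgeR 4.0.16, R 4.3.3; factors 0.977 and 1.02) over the whole table. Ratios carry exact conditional binomial (Clopper-Pearson) intervals, levels exact Poisson intervals, and ratios between genes exact conditional odds-ratio intervals (scipy 1.17.1). No molecular identifiers are described, so PCR copies may be counted and all intervals cover counting error only. Scripts were tested on simulated data. Members, 5 pathway lists and 15 marker lists were chosen with earlier results of these data known. Named were all members, pathway genes past 2-fold and the most abundant others; further pathway genes below 2-fold were named after their values were seen. Over 2 libraries a correlation is fixed by construction, so no gene of similar pattern was named. Protein sequences were not used here. Marker Ahsp had no identifier match. Tried as alternatives were size factors from DESeq2 1.42.0, unscaled totals, TMM without markers, RPKM, other pseudocounts (0.1, 5) and floors (none, 10 CPM), and a limit of 4-fold.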

Additional observations from a re-analysis of the deposited data

How the results depend on the processing

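No paired analysis was possible because each tissue has 1 library. Of 194 recomputed values, 171 stayed within their limit and 23 moved. The limit was 1.5-fold for a count and the members' SD for their median log2 difference. For the log2 difference of a gene it was the mean reach of its counting interval to either side. No log2 value changed sign, and a count has no sign to change. A gene could gain or lose its call within that limit, as Ltc4s, Ptges and Alox12 did. The median of all genes shifted by under 0.1 on the log2 scale under each scaling. Over 7 settings, the log2 difference of Alox5 ran from 3.49 to 3.93, Alox5ap 1.51 to 1.58, Lta4h 2.46 to 2.54, Alox15 1.87 to 3.90, Ptgs1 1.84 to 2.02, Ptgs2 -1.58 to -1.02 and Hpgds -2.04 to -1.40, all keeping their call. Ltc4s (0.41 to 3.13), Ptges (0.96 to 3.11) and Alox12 (-1.24 to -0.26) did not, since pseudocounts weigh most on few reads.

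With the 4-fold rule, 4 enzymes were higher in marrow (Alox5, Alox15, Lta4h and Ptges) and 0 in spleen, against 573 (4.42%) and 530 (4.09%) of all measured genes. That rule left 0 arachidonate release genes higher in marrow and 1 in spleen, 1 other leukotriene gene in spleen, 1 prostanoid synthase or removal gene in marrow, 1 leukotriene receptor and 0 prostanoid receptors in marrow. With a pseudocount of 5, genes higher in spleen numbered 1210 of all measured genes, 2 for arachidonate release, 1 for other leukotriene genes and 0 for other prostanoid synthases. A floor of 10 CPM gave 2, 1 and 0 for those lists. Among the 10 enzymes, a pseudocount of 5 left 5 higher in marrow and 2 in spleen. The floor of 10 CPM also left 5 and 2, and a pseudocount of 0.1 gave 7 and 3. With a pseudocount of 0.1, 2 other prostanoid synthase genes and 1 prostanoid receptor were higher in spleen, and with library totals 1 prostanoid receptor (Tbxa2r) was. Enzymes under about 20 reads (Ltc4s, Alox12) are limited by depth.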
